A study of Mus musculus with 24 samples.

Results

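Among 55335 genes counted in cultured primary osteoblasts (OBs), 36 were examined here because they encode the protein folding machinery of the endoplasmic reticulum (ER) and the machinery of ER-associated degradation (ERAD). They were taken by gene name, 26 as folding and 10 as degradation genes. All 36 were found in each library and passed the filter on low counts in each comparison, with a mean of 22 counts per library for *Derl3* and of 951 or more for the other 35.

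The OBs came from parietal bones of pups aged 4 or 5 days on the C57BL/6J background, either wild type (WT) or with 1 *Col1a2* allele that puts a cysteine in place of a glycine in the procollagen α2(I) chain (Het), a mouse model of osteogenesis imperfecta. Cells of several pups of 1 genotype were pooled, grown in medium with ascorbic acid 2-phosphate for all groups, and taken 8, 14 and 21 days after plating, with 4 libraries for each genotype and day (24 in all). Cells were cultured on separate occasions, from other litters, at unequal plating densities and with unequal oxygen early on, and the labels give replicate numbers 1 to 4 without saying which occasion a library came from. Wells that share a pool of pups are not independent animals, and the p-values below measure only the spread between these wells.

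Libraries held 17140202 to 59734231 counts (median 48340136), with 17140202 to 25825762 in the 6 libraries of replicate 1 and 28159342 to 59734231 in the other 18. Replicate 1 stood apart in its values as well. The root mean square difference of log2 values between libraries of a group was 0.468 to 0.651 for the 18 pairs with replicate 1 and 0.144 to 0.387 for the 18 pairs among replicates 2 to 4. Results that turn on replicate 1 are therefore given with and without it. The OB markers *Col1a1*, *Col1a2*, *Runx2*, *Sp7*, *Ibsp*, *Alpl* and *Bglap* were counted in all 24 libraries. Macrophage and chondrocyte markers were counted as well, whereas the plasma cell and B cell genes *Jchain*, *Mzb1* and *Cd79b* had at most 5 counts in any library (of the same list, *Ighm* had up to 705 and *Pou2af1* up to 222). Replicate 1 also differed in markers. At day 8 its OB markers held 1.78% (WT) and 1.88% (Het) of counts, against 3.40% to 4.91% in replicates 2 to 4. Its chondrocyte markers held 1.92% and 1.83% at day 8, against 0.348% to 1.48%. At day 14 they held 1.01% and 1.19%, against 0.0704% to 0.635%. At day 21 its OB markers, at 13.7% and 12.2%, lay within the range of replicates 2 to 4 (10.1% to 15.3%). In bulk RNA, fewer cells of a type and less RNA per cell cannot be told apart.

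Newly made secretory proteins enter the ER unfolded. BiP, the product of *Hspa5*, binds them in cycles that J-domain proteins start and nucleotide exchange factors end, lectin chaperones hold those with sugar chains, and protein disulfide isomerases form and rearrange disulfide bonds. Chains that do not fold are marked by trimming of their mannose sugars, led through a membrane complex around the ubiquitin ligase HRD1 and destroyed in the cytosol. In OBs much of this work serves procollagen, and both sets of genes can be induced by the unfolded protein response (UPR), whose transcription factors ATF6 and XBP1 bind short promoter elements.

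These elements are shown because they are shared by members whose changes over time, given below, were unlike. The ER stress response element (ERSE) was searched as CCAAT, any 9 bases and CCACG, and ERSE-II as ATTGG, any 1 base and CCACG, on both strands of windows from 250 bases before to 50 bases after each RefSeq gene start (GRCm38.p6). Of the members, 31 had such a window (22 folding and 9 degradation genes). *Hyou1*, *Manf*, *Sil1*, *Erp29* and *Derl1* had none and were not searched. ERSE was found in 7 of the 22 folding genes and 2 of the 9 degradation genes, against 37 of all 27025 genes with a window (0.137%). ERSE-II was found in *Dnajb11* and *Herpud1*, against 12 of all genes (0.0444%). A match is a description of these letters and not evidence that a factor binds there, and CCACG alone occurs in 35.5% of all genes' windows. The capitals below mark the fixed letters of each element within 29 bases. *Hspa5* has it on the plus strand at chr2:34772020-34772048, and *Hsp90b1* on both strands, at chr10:86705528-86705556 (plus) and chr10:86705633-86705661 (minus). The others are at chr8:84847070-84847098 (*Calr*, plus), chr11:50325795-50325823 (*Canx*, minus), chr15:88819515-88819543 (*Creld2*, minus), chr12:17266486-17266514 (*Pdia6*, plus), chr14:118937822-118937850 (*Dnajc3*, plus), chr10:75893237-75893265 (*Derl3*, minus), chr19:6046527-6046555 (*Syvn1*, plus), chr16:22857843-22857871 (*Dnajb11*, ERSE-II, plus) and chr8:94386368-94386396 (*Herpud1*, ERSE-II, plus).
Hspa5: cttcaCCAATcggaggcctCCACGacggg
Hsp90b1, plus strand: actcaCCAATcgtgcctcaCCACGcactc
Hsp90b1, minus strand: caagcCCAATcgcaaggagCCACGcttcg
Calr: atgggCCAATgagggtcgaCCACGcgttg
Canx: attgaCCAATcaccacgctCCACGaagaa
Creld2: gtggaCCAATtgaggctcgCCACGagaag
Pdia6: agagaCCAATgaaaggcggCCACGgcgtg
Dnajc3: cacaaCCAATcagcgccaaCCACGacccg
Derl3: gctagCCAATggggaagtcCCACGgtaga
Syvn1: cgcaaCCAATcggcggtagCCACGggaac
Dnajb11: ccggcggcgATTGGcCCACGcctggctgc
Herpud1: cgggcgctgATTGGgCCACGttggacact

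Levels are given as relative quantity (RQ), the ratio of a gene's count to the geometric mean over 4 housekeeping genes (*Sdha*, *Mrfap1*, *Actb* and *Actg1*) of that library. To compare genes with each other, RQ was also divided by exon length in kilobases. At days 14 and 21 the highest level per kb was that of *P4hb* (1.35 RQ per kb, mean of 16 libraries), which encodes both a disulfide isomerase and a subunit of the prolyl hydroxylase of procollagen. It was followed by the lectin chaperone *Calr* (0.737 RQ per kb), its disulfide isomerase partner *Pdia3* (0.552), the ER HSP90 *Hsp90b1* (0.526) and *Hspa5* (0.385). The 9 highest levels all belonged to folding genes.

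Degradation genes were spread over the places below these, among the other 17 folding genes. The lectin *Os9*, which recognizes trimmed sugar chains, had the highest level among them (0.144 RQ per kb). *Herpud1*, an organizer of the HRD1 complex, was at 0.103 RQ per kb and the derlin *Derl1* at 0.073. The ligase itself, *Syvn1*, was at 0.0197 RQ per kb and its partner *Sel1l* at 0.0400. *Derl3* was lowest at 0.00041 RQ per kb, and it had only 6 to 57 counts in a library. Together the folding genes took 0.709% to 1.10% of all counts in a library and the degradation genes 0.0758% to 0.0911%. The level of *Erp29* per kb is uncertain because its gene model shares 2210 exon bases with *Naa25* on the other strand and the strand rule of the counting is not given in the sources used here.

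**Figure D1:**
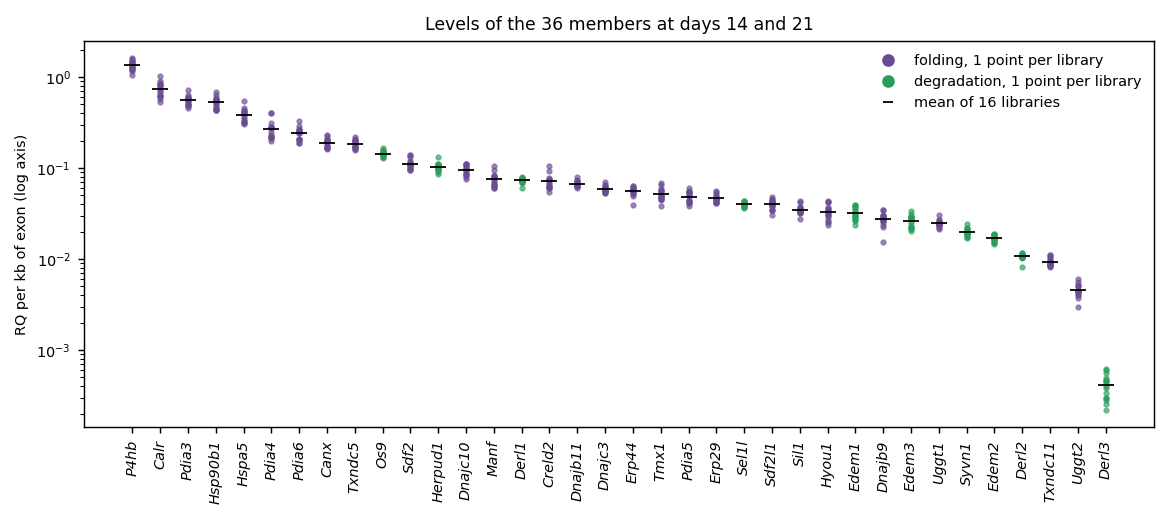
Level of each of the 36 members at days 14 and 21, as RQ per kb of exon on a log axis, with 1 point for each of 16 libraries and a bar for their mean. Folding genes (purple) hold the 9 highest places and *P4hb* is at 1.35, while degradation genes (green) run from 0.144 for *Os9* to 0.00041 for *Derl3*.

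Between days 14 and 21, many abundant ER chaperones and disulfide isomerases fell on the housekeeping scale. Over both genotypes, 15 of the 26 folding genes were lower at day 21 and none was higher, against 5.93% of all 19845 genes tested that were lower and 13.3% that were higher (edgeR's quasi-likelihood test, Benjamini-Hochberg adjusted p under 0.05). None of the 10 degradation genes was called by edgeR on this scale, with 2 at an unadjusted p under 0.05. DESeq2's Wald test called *Edem3* and *Syvn1* lower and edgeR on the other 3 scales called *Syvn1* lower. In either direction 19.2% of all genes were called. At such shares few of 10 genes would be called, so the absence of calls says little about the degradation genes. The median log2 change was −0.19 over the folding genes, −0.03 over the degradation genes and 0.06 over all genes. Below the median of all genes lay 23 of the 26 folding genes and 6 of the 10 degradation genes.

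*Hspa5* encodes BiP, the main HSP70 chaperone of the ER. Its RQ at day 14 was 2.33, 1.65, 1.64 and 1.83 in WT replicates 1 to 4 and 1.73, 1.94, 1.78 and 1.73 in Het. On day 21 it was 1.54, 1.39, 1.29 and 1.34 in WT and 1.75, 1.37, 1.44 and 1.32 in Het. In 7 of 8 pairs of the same genotype and replicate number the day 21 library was lower, the exception being Het replicate 1, and that library lay within the range of day 14. The log2 change was −0.36 ± 0.08 (SE, adjusted p = 0.00599), and the ratio of mean RQ was 0.771 within replicates 2 to 4 and 0.81 within replicate 1.

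*Hsp90b1* encodes the HSP90 of the ER, which works downstream of BiP on a narrower set of clients. Its RQ at day 14 was 2.77, 2.11, 2.18 and 2.30 in WT and 2.07, 2.55, 2.38 and 2.25 in Het, and on day 21 it was 2.18, 1.82, 1.74 and 1.85 in WT and 2.30, 1.74, 1.93 and 1.73 in Het. The replicate 1 libraries of day 21 overlapped with day 14, and the other 6 were lower than every day 14 library. The log2 change was −0.29 ± 0.08 (SE, adjusted p = 0.0181). Its exons share 415 bases with a pseudogene on the other strand.

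The largest fall was that of *Pdia4*, a disulfide isomerase with several thioredoxin domains. At day 14 its RQ was 0.958, 0.679, 0.674 and 0.757 in WT and 0.973, 0.666, 0.674 and 0.657 in Het. On day 21 it was 0.533, 0.549, 0.525 and 0.512 in WT and 0.596, 0.528, 0.518 and 0.470 in Het. The days did not overlap, and replicate 1 was the highest library of day 14 in each genotype. The log2 change was −0.51 ± 0.09 (SE, adjusted p = 0.00126), with a ratio of 0.585 within replicate 1 and 0.755 within replicates 2 to 4.

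*Hyou1*, a large HSP70 relative that acts as a nucleotide exchange factor of BiP, fell without overlap as well. Its RQ was 0.304, 0.254, 0.237 and 0.267 in WT and 0.311, 0.308, 0.254 and 0.248 in Het on day 14, and 0.170, 0.197, 0.186 and 0.184 in WT and 0.216, 0.228, 0.220 and 0.222 in Het on day 21. All 8 libraries of day 21 lay below all 8 of day 14 (log2 change −0.43 ± 0.07 SE, adjusted p = 0.000422). The lack of overlap was shared by the J-domain cochaperone *Dnajb11* and the thioredoxin domain protein *Txndc5*, so that it held for 4 of 26 folding genes and 0 of 10 degradation genes, against 0.695% of all genes. No member rose without overlap, as 1.77% of all genes did.

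The other folding genes that fell were the disulfide isomerases *P4hb* (−0.23), *Pdia3* (−0.24), *Pdia5* (−0.30) and *Pdia6* (−0.35), the lectin chaperones *Calr* (−0.42) and *Canx* (−0.22), the secreted stress-inducible *Manf* (−0.36), *Creld2* (−0.30) and the reductase *Txndc11* (−0.17), as log2 changes. Both UDP-glucose:glycoprotein glucosyltransferases, which return misfolded glycoproteins to the lectin chaperones, had values of −0.11 (*Uggt1*) and −0.15 (*Uggt2*) and were not called. The 3 highest values among folding genes were those of the J-domain proteins *Dnajb9* (0.16) and *Dnajc10* (0.15) and the nucleotide exchange factor *Sil1* (0.09), none of them called. Of the 9 members with an ERSE, 6 were lower at day 21 (*Hspa5*, *Hsp90b1*, *Calr*, *Canx*, *Creld2* and *Pdia6*), *Dnajc3*, *Derl3* and *Syvn1* were not called, and the 9 log2 values ran from −0.42 to −0.12. Of the 20 members whose window held neither element, 6 were lower. The 20 log2 values ran from −0.51 to 0.17 (median −0.06, against −0.30 for the 9 with an ERSE). *Hyou1* and *Manf*, both lower, had no window. *Dnajb11*, with ERSE-II past its gene start, was lower, and *Herpud1*, with ERSE-II before its start, had a log2 value of 0.10 (adjusted p = 0.25).

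All 15 were called under 4 library scales, and TMM, DESeq2 size factors and total counts added *Dnajc3* and the degradation gene *Syvn1*. Without replicate 1, 17 folding genes were lower, but without replicate 2, 3 or 4 only 6, 4 and 4 were, *Pdia4*, *Calr*, *Hyou1* and *Txndc5* among them each time. Of all genes, 2095 were lower without replicate 1, and 679, 501 and 406 without replicates 2, 3 and 4, against 1177 with all libraries. In WT alone 13 folding genes were lower (median −0.25, against 5.59% of all genes) and in Het alone none (median −0.15, against 0.0652% of all genes, with 8 members at an unadjusted p under 0.05). The difference between the genotypes in this change, a test chosen after seeing the data, was called for 0 of 19845 genes by edgeR and by DESeq2, with none of the 36 members at an unadjusted p under 0.05. A call in WT and none in Het does not show that the genotypes differed.

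Macrophage and osteoclast markers moved between the same days, with 7 of 10 higher at day 21 and their summed RQ between 2.21 and 7.83 on day 14 and between 6.33 and 17.5 on day 21. All 6 chondrocyte markers had log2 changes below 0 (median −1.43), with 2 called lower and 5 at an unadjusted p under 0.05. Their summed RQ was between 1.48 and 23.2 on day 14 and between 1.17 and 8.11 on day 21. The part of these cells in the fall of folding genes was not tested. Neither collagen I chain was called (*Col1a1* log2 change 0.22, adjusted p = 0.254, and *Col1a2* 0.28, adjusted p = 0.108).

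Other ER genes were counted in the same way, where 5.93% of all genes were lower at day 21 and 13.3% higher. Among 40 other genes of ER entry, glycosylation and redox control, 10 were lower at day 21 and 2 higher. The lower ones were led by the glucosidase *Mogs*, which trims the first glucose (log2 change −0.38 ± 0.05 SE, adjusted p = 0.00021), and *Ssr2* of the translocon-associated complex (−0.38 ± 0.08 SE, adjusted p = 0.00341). The higher ones were the oxidase *Ero1lb* (0.48 ± 0.13 SE, adjusted p = 0.0185) and *Dnajb14* (0.16 ± 0.05 SE, adjusted p = 0.0476). Among 30 other degradation genes, none was lower and 1, the deglycosylase *Ngly1*, was higher (0.25 ± 0.07 SE, adjusted p = 0.0163). At a share of 5.93% few genes of so short a list would be lower, so the absence of lower ones says little about it.

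**Figure D2:**
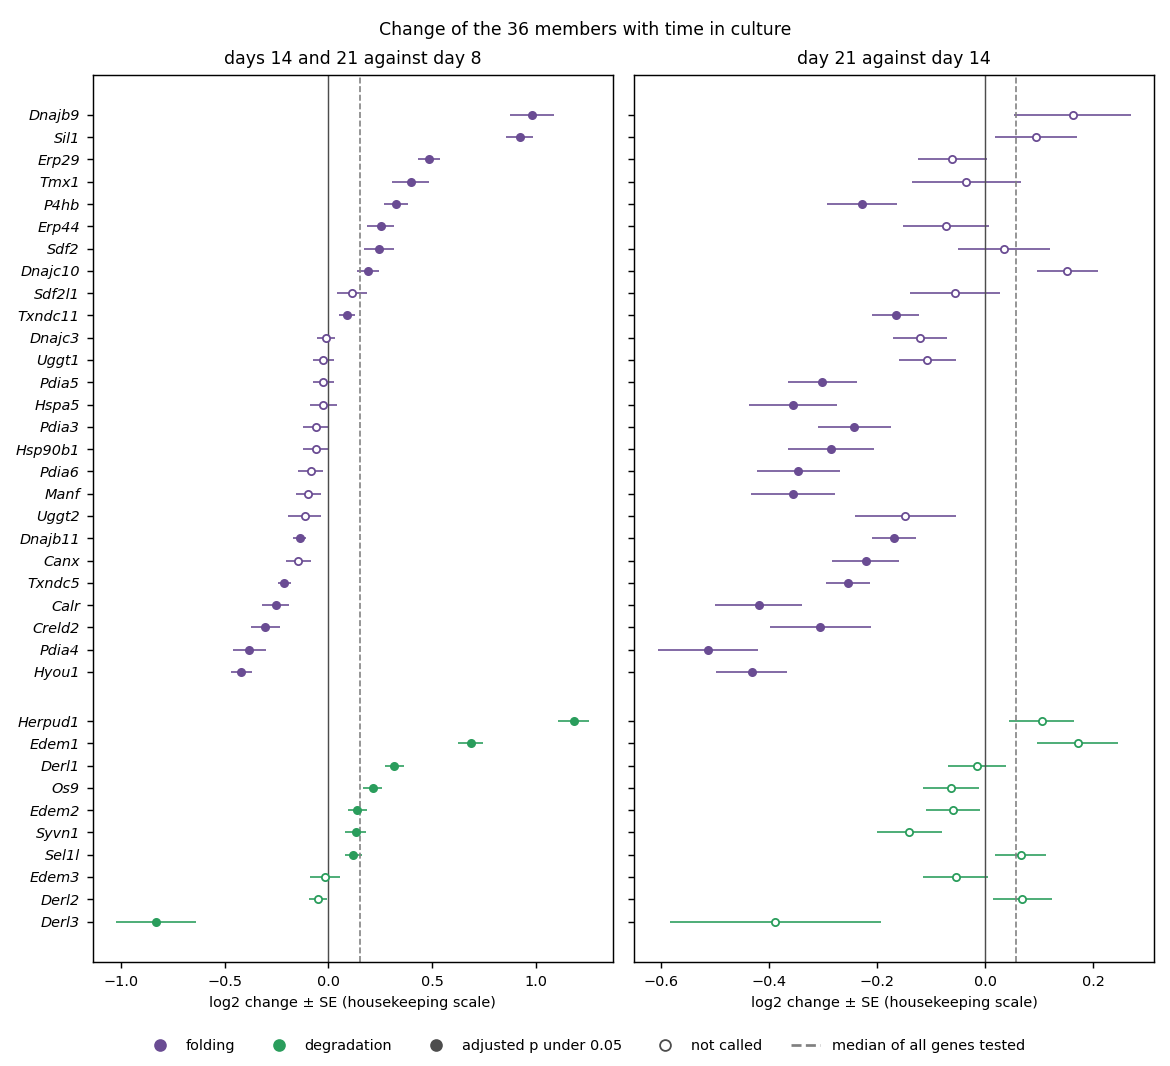
Log2 change ± SE of each member at days 14 and 21 against day 8 (left) and at day 21 against day 14 (right), folding genes in purple above degradation genes in green, filled where the adjusted p was under 0.05, with a dashed line at the median of all genes tested. On the right 15 folding genes are filled, all to the left of zero, and no degradation gene is, while on the left both groups hold genes on either side.

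From day 8 to days 14 and 21 the members moved in both directions, with strong rises of *Herpud1*, *Dnajb9*, *Sil1* and *Edem1* and moderate falls of several chaperones. On the housekeeping scale, 9 folding genes were higher and 6 lower, and 7 degradation genes were higher and 1 lower. Of all 20287 genes tested, 40.9% were higher and 17.6% lower. With 16 higher and 7 lower, the 36 members together were close to these shares. The scale matters here. The median log2 change of all genes was 0.15 on the housekeeping scale, 0.01 with TMM and −0.15 with total counts, and the members split into 16 higher and 7 lower, 8 and 19, and 5 and 25 respectively. Of all genes, 30.1% were higher and 29.9% lower with TMM. Relative to the median of all genes, 18 of 26 folding genes and 6 of 10 degradation genes lay below it. The calls that held under 4 scales were 5 rises (*Sil1*, *Dnajb9*, *Erp29*, *Herpud1* and *Edem1*) and 7 falls (*Pdia4*, *Calr*, *Hyou1*, *Dnajb11*, *Creld2*, *Txndc5* and *Derl3*).

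*Herpud1* had the largest rise. Its RQ at day 8 was 0.138, 0.104, 0.0983 and 0.104 in WT and 0.126, 0.0879, 0.0901 and 0.0990 in Het. On day 14 it was 0.235, 0.210, 0.200 and 0.213 in WT and 0.251, 0.256, 0.254 and 0.235 in Het, and on day 21 it was 0.224, 0.256, 0.243 and 0.229 in WT and 0.310, 0.246, 0.253 and 0.230 in Het. All 16 later libraries lay above all 8 of day 8, and replicate 1 was the highest library of day 8 in each genotype. The log2 change was 1.18 ± 0.07 (SE, adjusted p = 1.45e-11), with a ratio of mean RQ of 2.42 within replicates 2 to 4 and 1.94 within replicate 1.

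*Dnajb9*, a J-domain protein that steers clients of BiP to degradation, rose from 0.0373, 0.0419, 0.0368 and 0.0366 RQ in WT and 0.0450, 0.0317, 0.0247 and 0.0287 in Het on day 8. At day 14 it was at 0.0679, 0.0713, 0.0759 and 0.0701 in WT and 0.0392, 0.0681, 0.0756 and 0.0572 in Het. Het replicate 1 of day 14, the library with the fewest counts, lay within the range of day 8 and was the only later library to do so. At day 21 it was 0.0872, 0.0710, 0.0747 and 0.0780 in WT and 0.0872, 0.0652, 0.0659 and 0.0600 in Het. The log2 change was 0.98 ± 0.11 (SE, adjusted p = 7.76e-08).

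*Sil1*, which releases nucleotide from BiP as *Hyou1* does, moved in the opposite direction to *Hyou1*. Its RQ was 0.0766, 0.0654, 0.0592 and 0.0612 in WT and 0.0645, 0.0578, 0.0613 and 0.0612 in Het on day 8. At day 14 it was 0.113, 0.119, 0.120 and 0.111 in WT and 0.111, 0.128, 0.116 and 0.111 in Het, and on day 21 it was 0.144, 0.117, 0.124 and 0.121 in WT and 0.149, 0.116, 0.127 and 0.0945 in Het. No later library overlapped with day 8, and the log2 change was 0.92 ± 0.07 (SE, adjusted p = 1.32e-10). *Hyou1* had been at 0.334, 0.314, 0.312 and 0.323 RQ in WT and 0.326, 0.273, 0.324 and 0.306 in Het on day 8, and its log2 change was −0.42 ± 0.05 (SE, adjusted p = 3.22e-07). The ratio of its mean RQ was 0.758 within replicate 1 and 0.758 within replicates 2 to 4.

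*Pdia4* stood at 0.947, 0.834, 0.850 and 0.848 RQ in WT and 0.971, 0.680, 0.692 and 0.767 in Het on day 8, and its log2 change to days 14 and 21 was −0.38 ± 0.08 (SE, adjusted p = 0.00034). Its day 14 values, given above, overlapped with those of day 8, and its day 21 values were lower than all of them. *Creld2*, which ER stress induces, was at 0.128, 0.124, 0.125 and 0.120 RQ in WT and 0.122, 0.106, 0.122 and 0.109 in Het on day 8. It was at 0.144, 0.101, 0.105 and 0.104 in WT and 0.128, 0.0977, 0.0893 and 0.0933 in Het on day 14, and at 0.101, 0.0873, 0.0819 and 0.0842 in WT and 0.101, 0.0822, 0.0843 and 0.0746 in Het on day 21. Replicate 1 held the highest value of day 14 in each genotype, and the days overlapped. The log2 change from day 8 was −0.30 ± 0.07 (SE, adjusted p = 0.00105), with a ratio of 0.951 within replicate 1 and 0.769 within replicates 2 to 4.

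*Edem1*, which helps to trim mannose from misfolded glycoproteins, rose by 0.69 ± 0.06 on the log2 scale (SE, adjusted p = 2.93e-09), without overlap between day 8 and the later days. *Erp29*, a relative of the disulfide isomerases, rose without overlap too (0.49). In all, 4 of the 36 members did so, close to the share of all genes (11.1%). No member fell without overlap, as 2.72% of all genes did, so neither count sets the members apart. *P4hb* had a log2 change of 0.33 and was also called higher with TMM, but was not called with total counts. With the replicate number as a block, *Canx* was lower as well (log2 change −0.14 ± 0.05 SE, adjusted p = 0.0243). *Edem2* (0.14), *Sel1l* (0.12) and *Syvn1* (0.13) were higher on the housekeeping scale and lower with total counts, and *Dnajc10* and *Txndc11* likewise, so no direction is given for them. *Hspa5* (−0.02, adjusted p = 0.772) and *Hsp90b1* (−0.06, adjusted p = 0.453) were not called on the housekeeping scale and were lower with the other 3 scales. *Derl3*, outside the rule for named genes because of its low count, ranged from 0.00081 to 0.00242 RQ at day 8 and from 0.000438 to 0.00124 RQ later, and its log2 change was −0.83 ± 0.19 (SE, adjusted p = 0.000862).

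Over the same interval the genes of the secretory cargo rose strongly, with log2 changes of 1.95 for *Col1a1* and 2.02 for *Col1a2*, and all 7 OB markers were higher. So were 9 of 10 macrophage and osteoclast markers, whose summed RQ was 0.720 to 1.44 at day 8 and 2.21 to 17.5 later, and all 6 chondrocyte markers were lower. The part of these cells in the changes of the members was not tested. The counts of other ER genes that follow are on the housekeeping scale alone, on which 40.9% of all genes were higher and 17.6% lower. Of the 40 other genes of ER entry, glycosylation and redox control, 27 were higher and 1 lower. The rises were led by the oxidase *Ero1l* (log2 change 1.58 ± 0.17 SE, adjusted p = 6.63e-08) and the signal peptidase subunit *Sec11c* (0.71 ± 0.09 SE, adjusted p = 3.8e-07). The lower one was the sulfhydryl oxidase *Qsox1* (−0.30 ± 0.05 SE, adjusted p = 2.2e-05). Of the 30 other degradation genes, 14 were higher, led by the lectin *Erlec1* (0.66 ± 0.08 SE) and *Selenos* (0.55 ± 0.07 SE), and 4 were lower, led by the erlins *Erlin1* (−0.65 ± 0.08 SE) and *Erlin2* (−0.47 ± 0.08 SE), which bind ERAD substrates in the membrane.

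**Figure D3:**
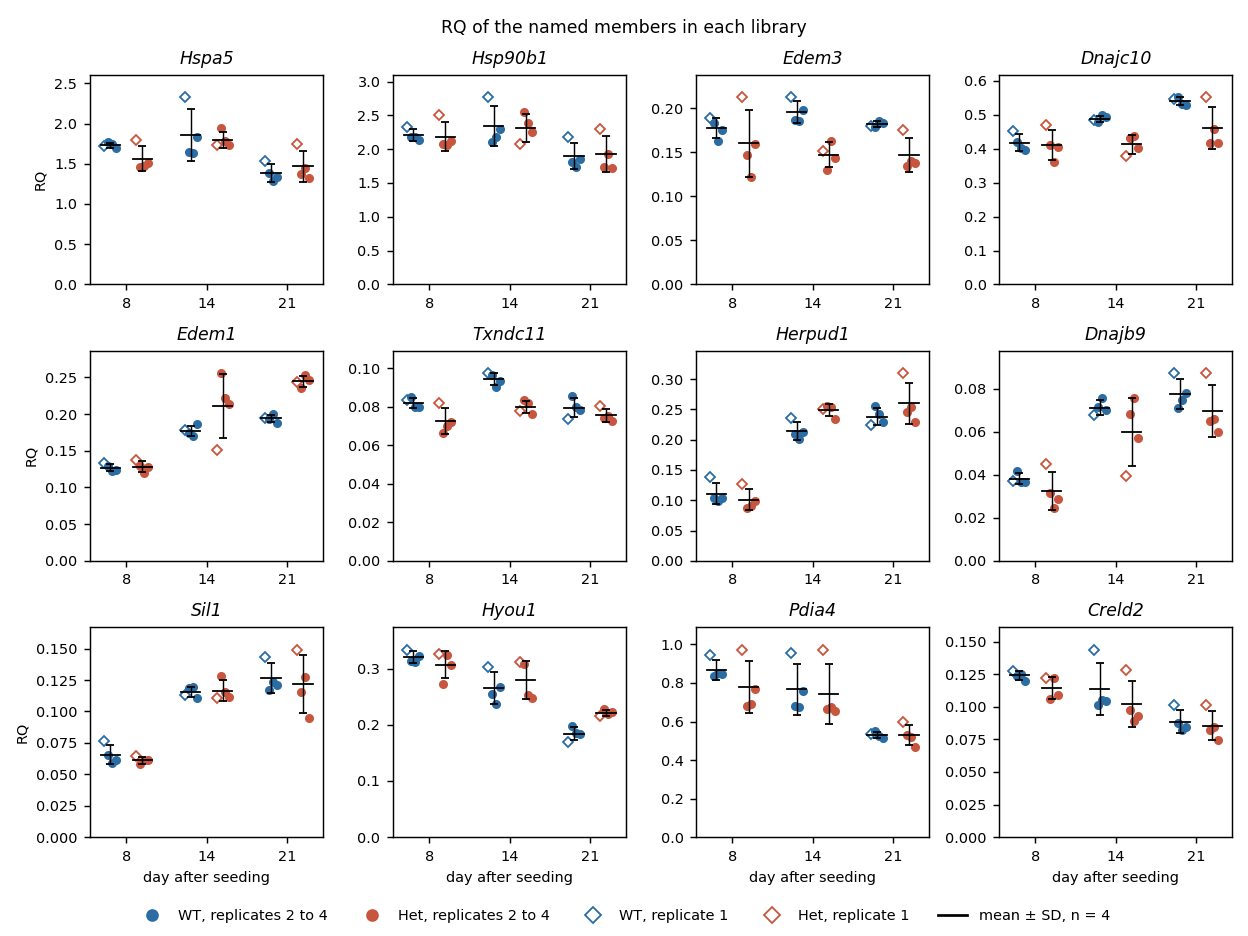
RQ (ratio of the count to the geometric mean of 4 housekeeping genes) of 12 members in each of 24 libraries by day, WT in blue and Het in red, with replicate 1 as open diamonds and bars for mean ± SD of 4 libraries. *Herpud1*, *Sil1* and *Edem1* are higher at days 14 and 21 than at day 8 in all libraries, *Pdia4* and *Hyou1* are lowest at day 21, and *Edem3* is lower in all 8 Het than in all 8 WT libraries of days 14 and 21.

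In Het against WT cultures at days 14 and 21, the question was whether cells that make the mutant chain alter their ER folding and degradation genes. Of the 36 members, 4 were called, against 16.1% of 19845 genes tested (7.27% higher and 8.87% lower), and 9 had an unadjusted p under 0.05. Of the 26 folding genes, 2 were lower in Het and none higher, and of the 10 degradation genes, 1 was higher and 1 lower. The 2 folding genes, *Dnajc10* and *Txndc11*, encode proteins described below as acting in ERAD or with the EDEM proteins. These counts therefore do not separate folding from degradation by function. The median log2 difference was −0.05 over the folding genes, −0.01 over the degradation genes and −0.05 over all genes. The 4 called were *Edem3*, *Edem1*, *Dnajc10* and *Txndc11*.

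*Hspa5* and *Hsp90b1* were not among them. From the RQ values given above, the ratio of mean RQ of *Hspa5* in Het to WT was 1.00 over days 14 and 21, with Het higher in 4 of 8 pairs of the same day and replicate number. Its log2 difference was 0.02 ± 0.08 (SE, adjusted p = 0.935), which at 2 SE covers −0.15 to 0.18. *Hsp90b1* had 0.00 ± 0.08 (SE, adjusted p = 0.99), covering −0.16 to 0.16. Within replicates 2 to 4 the ratios were 1.05 and 1.05, and within replicate 1 they were 0.90 and 0.884.

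*Edem3*, which trims mannose and so marks glycoproteins for degradation, gave the clearest difference. Its RQ in WT was 0.213, 0.186, 0.186 and 0.198 at day 14 and 0.180, 0.178, 0.186 and 0.183 at day 21. In Het it was 0.152, 0.130, 0.163 and 0.144 at day 14 and 0.175, 0.135, 0.140 and 0.138 at day 21. All 8 Het libraries lay below all 8 WT libraries, which held for no other member and for 0.524% of all genes, while no member lay wholly higher in Het, as 0.398% of all genes did. The log2 difference was −0.36 ± 0.06 (SE, adjusted p = 0.00208), with a ratio of mean RQ of 0.761 within replicates 2 to 4 and 0.832 within replicate 1. At day 8 it was 0.188, 0.183, 0.163 and 0.175 in WT and 0.213, 0.147, 0.122 and 0.159 in Het, with Het replicate 1 above WT.

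*Edem1* went the other way. Its RQ in WT was 0.179, 0.174, 0.170 and 0.186 at day 14 and 0.195, 0.193, 0.200 and 0.188 at day 21. In Het it was 0.152, 0.255, 0.222 and 0.214 at day 14 and 0.243, 0.236, 0.253 and 0.246 at day 21. Apart from Het replicate 1 of day 14, which was lower than every WT library of these days, all Het libraries were higher than all WT libraries. The log2 difference was 0.29 ± 0.08 (SE, adjusted p = 0.0168), and the ratio was 1.28 within replicates 2 to 4 and 1.06 within replicate 1. At day 8 it was 0.133, 0.129, 0.122 and 0.124 in WT and 0.137, 0.130, 0.119 and 0.127 in Het. The third member of the family, *Edem2*, had a log2 difference of −0.13 ± 0.05 (SE, adjusted p = 0.0844).

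*Dnajc10* encodes a J-domain protein and disulfide reductase that acts with BiP and EDEM1 in ERAD. Its RQ in WT was 0.485, 0.478, 0.498 and 0.493 at day 14 and 0.547, 0.552, 0.533 and 0.530 at day 21, and in Het 0.380, 0.432, 0.437 and 0.401 at day 14 and 0.551, 0.417, 0.458 and 0.418 at day 21. Het replicate 1 of day 21 lay with the WT libraries of its day, and the other 7 Het libraries were below all 8 of WT. The log2 difference was −0.24 ± 0.06 (SE, adjusted p = 0.0112), with a ratio of 0.831 within replicates 2 to 4 and 0.903 within replicate 1. At day 8 it was 0.452, 0.419, 0.402 and 0.397 in WT and 0.469, 0.409, 0.361 and 0.404 in Het, which overlapped.

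*Txndc11*, a reductase that works with the EDEM proteins, differed least. Its RQ in WT was 0.0975, 0.0968, 0.0905 and 0.0934 at day 14 and 0.0737, 0.0857, 0.0799 and 0.0786 at day 21, and in Het 0.0781, 0.0835, 0.0820 and 0.0764 at day 14 and 0.0805, 0.0741, 0.0754 and 0.0727 at day 21. The genotypes did not overlap at day 14 and overlapped at day 21. The log2 difference was −0.16 ± 0.04 (SE, adjusted p = 0.0259). This call was lost on the other 3 scales and without any 1 of 5 libraries (WT replicates 2 and 4 of day 14, WT replicate 2 of day 21, and Het replicate 4 of either day), whereas those of *Edem3*, *Edem1* and *Dnajc10* held on 4 scales and without any single library.

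The number of calls depended on the scale and on the replicates. With the replicate number as a block, *Herpud1* (0.17 ± 0.06 SE, adjusted p = 0.046) and *Uggt2* (−0.25 ± 0.09 SE, adjusted p = 0.0496) were called in addition, so that 2 members were higher and 4 lower, against 9.34% and 14.2% of all genes. With TMM, 3 were higher (*Edem1*, *Herpud1* and *Hyou1*) and 2 lower, and with total counts 6 were higher and 2 lower, while the split of all genes went from 1443 higher and 1761 lower to 2561 and 1443 with TMM and 3289 and 1008 with total counts. Without replicate 1, 4 members were higher and 8 lower, against 17.2% and 22.1% of all genes. Without replicate 2 or 3 *Edem3* was the only member called, and without replicate 4 none was. Over all genes the calls fell as well, to 149 higher and 181 lower without replicate 2, 122 and 138 without replicate 3, and 76 and 63 without replicate 4.

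Cell type markers differed between the genotypes at these days. Of 7 OB markers, 5 were lower in Het, among them *Col1a1* (−0.39 ± 0.12 SE, adjusted p = 0.0442) and *Col1a2* (−0.41 ± 0.12 SE, adjusted p = 0.0268). Of 10 macrophage and osteoclast markers, 7 were higher, the macrophage genes *C1qa*, *Lyz2*, *C1qb*, *Csf1r*, *Adgre1*, *Cd14* and *Cd68*. The osteoclast genes *Acp5*, *Ctsk* and *Ocstamp* had log2 differences below 0 (down to −0.43) and were not called. The summed RQ of all 10 was 2.21 to 7.32 in WT and 3.45 to 17.5 in Het. All 6 chondrocyte markers had log2 differences below 0 (median −0.71), with none called and none at an unadjusted p under 0.05. This result turned on replicate 1, whose summed RQ was alike between genotypes (WT 22.6, Het 23.2 on day 14, and 8.11 for each on day 21). Among replicates 2 to 4 the genotypes did not overlap. Day 14 libraries ranged over 6.43 to 13.5 (WT) against 1.48 to 2.64 (Het). Those of day 21 ranged over 3.52 to 5.77 (WT) against 1.17 to 1.39 (Het). A test of these markers without replicate 1 is not given here. The part of any of these cells in the differences of the members was not tested. Of the 30 other degradation genes, *Rhbdd1*, an ER membrane protease, was higher (0.31 ± 0.06 SE, adjusted p = 0.00382), as was the ubiquitin ligase *Rnf185* (0.19 ± 0.06 SE, adjusted p = 0.0369). *Selenok* (−0.26 ± 0.07 SE), *Erlec1* (−0.26 ± 0.08 SE) and the ligase *March6* (−0.24 ± 0.07 SE), which is named after its value was seen because it completes the list, were lower. Of the 40 other genes of ER entry, glycosylation and redox control, the membrane-bound thioredoxin *Tmx4* was lower (−0.28 ± 0.07 SE, adjusted p = 0.0164) and none was higher.

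**Figure D4:**
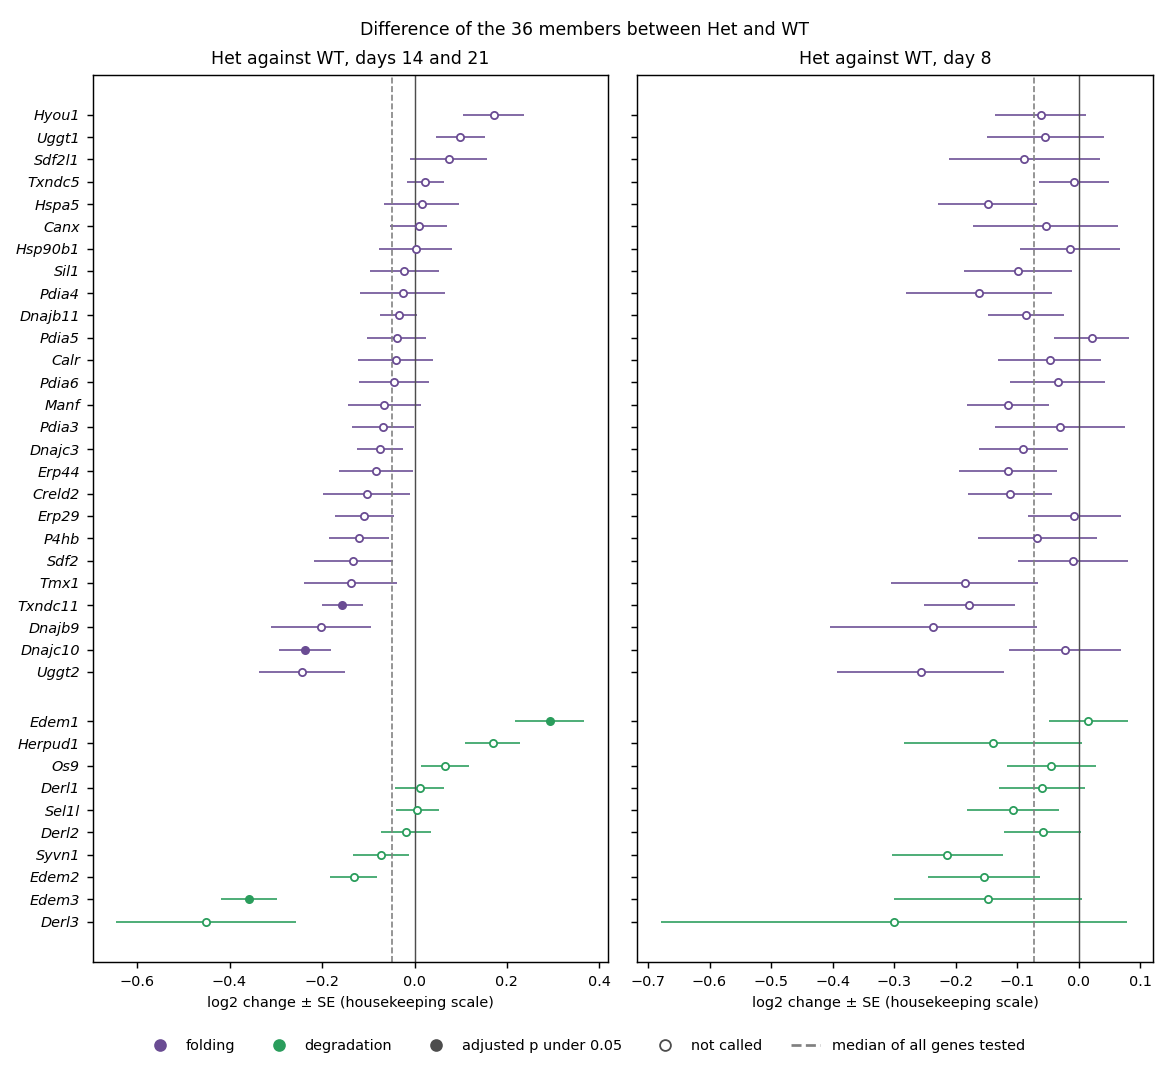
Log2 difference ± SE between Het and WT for each member at days 14 and 21 (left) and at day 8 (right), folding genes in purple above degradation genes in green, filled where the adjusted p was under 0.05, with a dashed line at the median of all genes tested. On the left *Edem1* is filled to the right of zero and *Edem3*, *Dnajc10* and *Txndc11* to the left, and on the right no member is filled and 34 of 36 are below zero.

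At day 8 no member was called between Het and WT. Of 18191 genes, 0.0% were called by edgeR, and 2 members (*Txndc11* and *Syvn1*) had an unadjusted p under 0.05. DESeq2's Wald test called 249 genes higher and 206 lower, and 0 members. With the replicate number as a block, edgeR called 105 genes higher and 177 lower, again with 0 members, and 7 members had an unadjusted p under 0.05. With replicate 1 as a term it called 268 higher and 432 lower, among them *Syvn1*. On the housekeeping scale 25 of 26 folding and 9 of 10 degradation genes had a log2 difference below 0, but so did the median of all genes (−0.07), and the median of the folding genes was −0.08. *Hspa5* was at 1.72, 1.77, 1.74 and 1.69 RQ in WT and 1.79, 1.46, 1.47 and 1.51 in Het, and *Hsp90b1* at 2.33, 2.19, 2.18 and 2.14 in WT and 2.5, 2.08, 2.05 and 2.12 in Het. In both genes Het replicate 1 was the highest of all 8 libraries and the other 3 Het libraries were below all of WT. No cell type marker was called by edgeR. Of macrophage and osteoclast markers, 7 of 9 had an unadjusted p under 0.05 (median log2 difference of the list 1.28). So did 3 of 6 chondrocyte markers (median −1.17) and 2 of 7 OB markers (median −0.48). The part of these cells in the values of the members was not tested.

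Without replicate 1, 9 members were lower in Het and none higher, where 14.1% of 18342 genes were lower and 4.55% higher. They were *Hspa5* (log2 difference −0.22 ± 0.06 SE, adjusted p = 0.0291), *Pdia4*, *Dnajb9*, *Tmx1*, *Uggt2* and *Txndc11* of the folding genes and *Syvn1*, *Edem2* and *Derl3* of the degradation genes. The log2 differences ran from −0.20 for *Edem2* to −0.83 for *Derl3*, and the median of all genes was then −0.11. Without Het replicate 1 of day 8 alone, 5 of the same 9 were lower (*Hspa5*, *Dnajb9*, *Uggt2*, *Txndc11* and *Syvn1*). The genotype difference of these genes at day 8 therefore cannot be given apart from the choice to keep replicate 1.

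The difference between the Het effect at days 14 and 21 and that at day 8 was called for none of the 36 members by edgeR, against 0.177% of 20287 genes, with 4 members at an unadjusted p under 0.05. DESeq2's Wald test called *Dnajc10* lower. The log2 values of this difference were 0.28 ± 0.12 (SE) for *Edem1*, 0.31 ± 0.14 for *Herpud1*, 0.23 ± 0.10 for *Hyou1* and −0.21 ± 0.10 for *Dnajc10*. Without replicate 1, *Edem1*, *Herpud1*, *Hspa5* and *Sdf2l1*, a partner of the J-domain protein of *Dnajb11*, were called higher, against 3.92% of all genes, and without Het replicate 1 of day 14 *Edem1* was.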

How the data were processed

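Polyadenylated RNA of 24 wells was made into TruSeq libraries. The files the authors deposited hold unnormalized read counts for each gene. The submitters' processing notes name cutadapt 2.5, STAR 2.73a, featureCounts 1.6.4 of Subread and mm10, whereas strandedness in counting and the use of multiply matching reads are not given in the sources used here. Without molecular identifiers, PCR duplicates are counted too. Members that share exon bases with another gene are *Derl2*, *Dnajb9*, *Erp29*, *Hsp90b1*, *Manf*, *Pdia3*, *Pdia4*, *Pdia6*, *Sdf2*, *Sil1*, *Syvn1*, *Txndc11*, *Txndc5* and *Uggt2* (GENCODE mouse release 21, in which all 36 identifiers were found), and their values are uncertain to that extent. Depth ranged from 17140202 to 59734231 counts, which leaves counting error small for all members except *Derl3*.

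Groups came from the labels. Counts were tested with edgeR 4.0.16 in R 4.3.3 (glmQLFit and glmQLFTest) on all genes that passed filterByExpr, with the housekeeping geometric mean as library scale and Benjamini-Hochberg adjustment over all genes tested at 0.05. Het and WT were compared over the 16 libraries of days 14 and 21 (day as covariate) and over the 8 of day 8, and the days over both genotypes. Alternatives were TMM, DESeq2 size factors, total counts, each housekeeping gene left out, other filters on low counts, DESeq2 1.42.0, single days or genotypes, the replicate number as block, replicate 1 as a term, and each replicate number or library left out. The steps were tested on simulated data, in which the 4 housekeeping genes had no noise and libraries shared nothing by replicate number. Error of the library scale and the distance of replicate 1 were therefore not covered by that test. The members and lists were chosen with earlier results of these data known. The genes named were *Hspa5*, *Hsp90b1*, members with a mean of at least 50 counts called between genotypes, the 3 largest rises and falls against day 8 and the 2 of day 21 against day 14, and at most 2 rises and 2 falls of each other ER list. Other members are given by group.

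Same-numbered WT and Het libraries of a day deviated together from their group means in 12 of 12 pairs (correlation 0.195 to 0.713, median 0.506). The 36 pairs with unequal numbers had a median of −0.123, but taking group means away lowers these, and 16 of them were over 0.1. Among replicates 2 to 4 the number did not always single out a partner. At day 21, WT replicate 4 had 0.303 with Het replicate 2 and 0.195 with Het replicate 4. What a number shares is not stated. Replicate numbers served to pair libraries in counts of pairs and in the block fits, and the main fits left them out. No libraries of a group were alike within counting noise (smallest chi-square per degree of freedom 4.78), and all 24 were kept.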

Additional observations from a re-analysis of the deposited data

Results flagged for a closer look

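Among 72 groups of 4 libraries (12 named members, 6 groups each), 8 held a library far from the other 3 by Dixon's test, and 7 of the 8 were replicate 1. Chance flags about 1 group in 20 for a single gene. The 12 genes were read in the same 24 libraries and are not independent, so 8 of 72 cannot be set against that rate. *Hspa5* had an RQ of 1.79 in Het replicate 1 of day 8, against 1.46 to 1.51 in the other 3, and *Hsp90b1* one of 2.5 in the same library, against 2.05 to 2.12. *Pdia4* was at 0.947 in WT replicate 1 of day 8 (0.834 to 0.850 in the others) and at 0.973 in Het replicate 1 of day 14 (0.657 to 0.674). *Creld2* was at 0.144 in WT replicate 1 of day 14 (0.101 to 0.105), *Herpud1* at 0.138 in WT replicate 1 of day 8 (0.0983 to 0.104) and *Edem3* at 0.175 in Het replicate 1 of day 21 (0.135 to 0.140). The 1 library of another number was WT replicate 2 of day 8, in which *Dnajb9* was at 0.0419, against 0.0366 to 0.0373.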

How the results depend on the processing

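Under 4 scales the calls of *Edem1*, *Edem3* and *Dnajc10* between genotypes, the 15 falls from day 14 to day 21 and 12 changes from day 8 held. Members higher in Het at days 14 and 21 numbered 1, and became 3 with TMM, 4 with DESeq2 size factors, 6 with total counts or DESeq2's Wald test, 2 with a scale without *Actb*, with the replicate block or with replicate 1 as a term, and 0 at day 14 alone. The 3 lower members became 0 at day 14 alone or day 21 alone. At day 8, 1 member was lower with replicate 1 as a term, and in the difference of effects 1 was lower with DESeq2's Wald test. Against day 8, 16 higher and 7 lower members became 8 and 19 with TMM, DESeq2 size factors or the Wald test, 5 and 25 with total counts, and 9 and 4 in Het alone. At day 21 against day 14, 1 member was higher with the Wald test, and the 15 lower became 0 in Het alone, 10 with a scale without *Sdha* (losing *P4hb*, *Pdia3*, *Canx*, *Creld2* and *Txndc11*) and 11 with no filter on low counts (losing *Hsp90b1*, *Pdia3*, *Canx* and *P4hb*). The call of *Creld2* was also lost without any 1 of 8 single libraries (WT replicate 1 of day 14 and replicates 2 to 4 of day 21, and the same in Het). The replicate block added the calls of *Herpud1* and *Uggt2* between genotypes and that of *Canx*, lower against day 8 (8 members lower), and changed no other call of a member. The cause of these shifts was not tested, beyond fewer libraries in the fits of 1 day or genotype.

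Leaving out a replicate number or a library gave 0 to 4 members higher and 0 to 8 lower in Het at days 14 and 21, 0 to 9 lower at day 8, 0 to 4 higher in the difference of effects, 11 to 16 higher and 7 to 10 lower against day 8, and 0 to 1 higher and 4 to 17 lower at day 21 against day 14. The 1 higher was *Edem1* without Het replicate 2 of day 14 and *Dnajc10* without Het replicate 2 or 4 of day 21.

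Some log2 values changed sign. The Het difference of *Hspa5* was −0.052 at day 14 alone and −0.033 to 0.079 over the omissions. That of *Hsp90b1* was −0.00592 with a scale without *Mrfap1*, −0.012 without *Sdha*, −0.017 at day 14 alone and −0.044 to 0.060 over the omissions. Against day 8, *Dnajc10* was −0.11 with total counts, and *Txndc11* was −0.054 with TMM, −0.053 with DESeq2 size factors, −0.052 with the Wald test and −0.21 with total counts. Depth limits only *Derl3*.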
